A study of Gallus gallus with 77 samples.

Results

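KCNN2, ADCY1 and ADORA2A are 3 of the 1507 genes measured in sensory epithelia (SE) of the chick cochlea after laser wounds. They encode a potassium channel, an adenylyl cyclase and an adenosine receptor, and are among the few genes on an array of transcription factors that do not encode one. They were picked by name with the ratios of the 30 min time point known, where KCNN2 had one of the largest changes of the array. The 30 min ratios are therefore given as a description, without a test, while 1 hr, 2 hrs and 3 hrs are tested.

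KCNN2 is a small-conductance potassium channel opened by intracellular calcium. In hair cells it opens when calcium enters through nicotinic acetylcholine receptors, and the potassium current that follows carries the inhibition that efferent neurons exert on the hair cell. ADCY1 is an adenylyl cyclase stimulated by calcium and calmodulin, and it makes cyclic AMP (cAMP), the messenger that activates protein kinase A and, through it, transcription factors of the CREB family. ADORA2A is a receptor for extracellular adenosine that couples to the stimulatory G protein and raises cAMP.

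The lesioned samples were cultured SE taken at 4 times (30 min, then 1, 2 and 3 hrs) after linear wounds from a pulsed laser, and the controls were unlesioned cultures of the same time. All came from White Leghorn chicks in the weeks after hatch. The SE had been freed from the underlying tissue with thermolysin and grown on fibronectin, several cultures were pooled in each sample, and the RNA was amplified before labelling. The 4 time points had 2 biological replicates each, hybridized on 25, 17, 15 and 20 arrays, of which 38 carried the laser RNA in Cy3 (laser-Cy3 arrays below) and 39 carried it in Cy5 (laser-Cy5 arrays). The probes were designed on human genes. Laser and control RNA were compared on the same array, so each ratio refers to the control of the same time. In pooled cultures, fewer cells of a type and less RNA per cell cannot be told apart.

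The median raw signal of an array was between 794 and 4116, and the median signal over local background between 2.16 and 32.4. A gene was taken as detectable where 80% or more of a time point's arrays had a signal of 1000 or more. By this measure 483 of 1507 genes were detectable at 30 min, and 1389, 1288 and 864 at the later times in order. Of the hair cell markers on the array, 0, 4, 4 and 3 of 4 were detectable at the 4 times in order, and of the supporting cell markers 1, 5, 4 and 4 of 5. Markers of cells outside the epithelium were also detectable, with 3, 4, 2 and 3 of 4 for neurons, 1, 3, 3 and 0 of 3 for mesenchyme and 0, 3, 2 and 1 of 3 for blood. With 864 or more of 1507 genes detectable at each later time, such counts do not tell which cells were present. By N-cadherin staining, the study found its cultures to hold almost only cells of the sensory epithelium. No marker was called for laser over control at a limma adjusted p under 0.05 at 1 hr, 2 hrs or 3 hrs. Unadjusted, 1 of 4 hair cell markers and 1 of 5 markers of otic epithelium passed at these times. By an unadjusted p under 0.05 with over 1.2-fold, 0.332%, 4.19% and 1.53% of the 1504 genes tested were called at these times in order. The part of these markers in the results below was not tested.

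The direction of every ratio depends on the dye labels. Titles and image names gave the same dye to the laser RNA on 77 of 77 arrays. If the laser effect were the main difference between the channels, the ratio of laser over control would run the same way in both dye orientations. Over all genes, the mean ratios of both orientations correlated below 0 in 8 of 8 replicates, between −0.64 and −0.24. Genes brighter in one dye thus tended to be brighter in that dye in both orientations, as the labels give them. The part of the dyes and of the labels in this was not tested. For this reason each ratio is given below as the mean of both orientations, for each orientation, and as Cy5 over Cy3 with no array turned (the dye effect). All ratios and dye effects are on the log2 scale.

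KCNN2 was detectable at every time point. At 30 min, the lowest, median and highest raw signals over 25 arrays were 1041, 8410 and 65535 for laser RNA and 2957, 11254 and 65535 for control RNA. At 1 hr they were 3464, 11714 and 38524 for laser RNA, against 3227, 10728 and 25697 for control RNA over 17 arrays. At 2 hrs they were 3586, 10142 and 19004 for laser RNA, against 4534, 9608 and 18764 for control RNA over 15 arrays. The ranges of laser and control RNA overlapped at each of these times, and neither was higher throughout. At 3 hrs they were 3957, 6641 and 20052 for laser RNA and 3673, 11611 and 56609 for control RNA over 20 arrays. All 77 arrays were above the minimum of 1000 for KCNN2, and the mean over its spots was 3.14 times the local background or more in each channel. On 4 arrays, all of replicate 2 at 30 min, at least 1 of the 2 KCNN2 spots reached the ceiling of the scanner, and on 2 of them both spots did so in both channels, where the raw signals of laser and control RNA were equal.

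**Figure D1:**
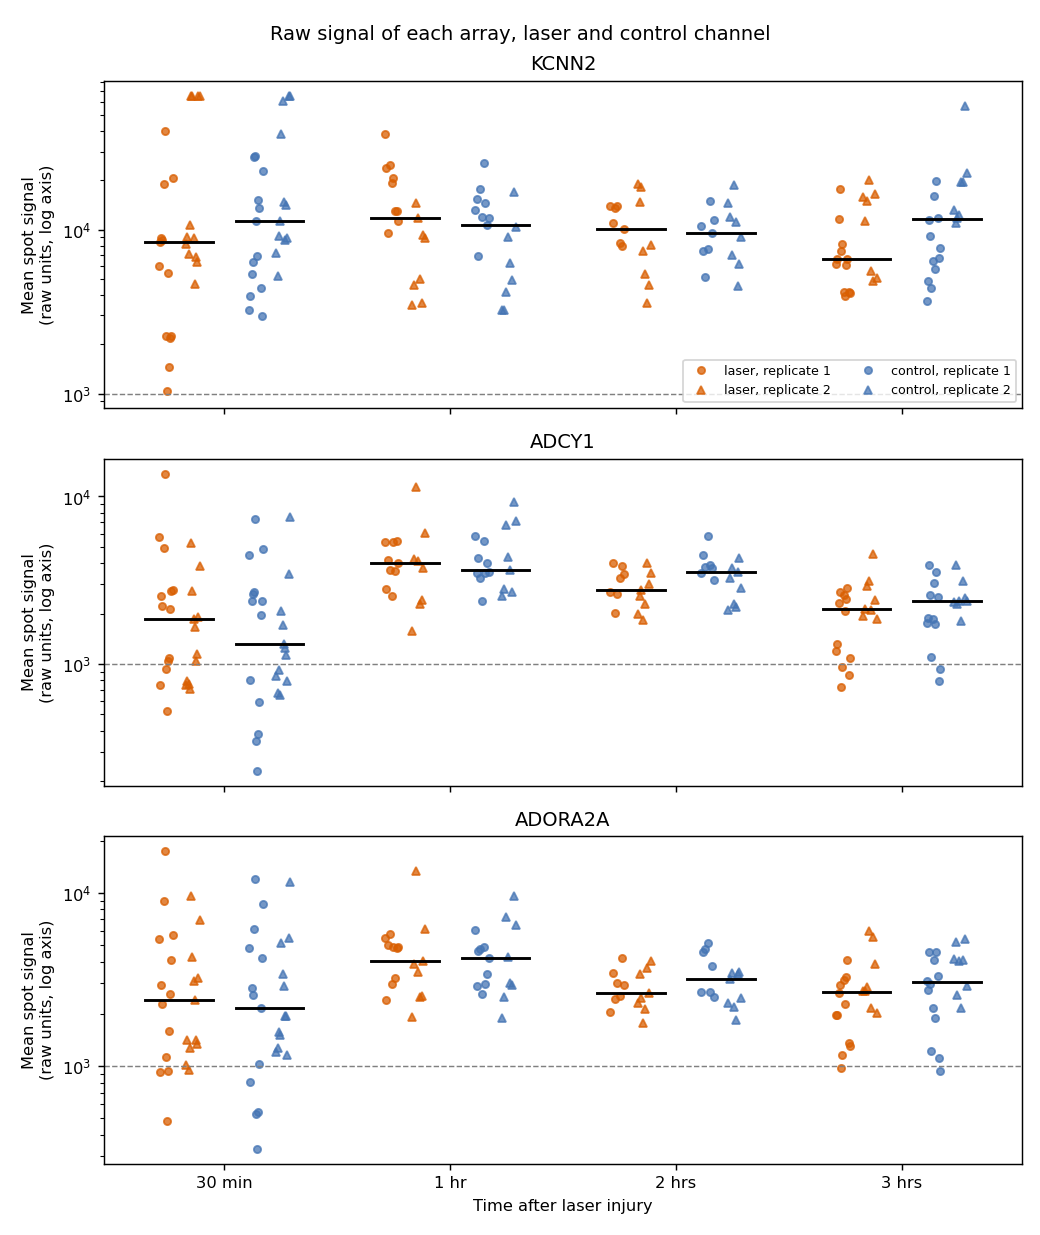
Raw mean spot signal (log axis) of KCNN2, ADCY1 and ADORA2A on each array, by time after laser injury, for laser and control RNA, with a symbol for each biological replicate, black bars at the medians and a dashed line at the signal minimum of 1000. KCNN2 lay above the line on all 77 arrays, whereas ADCY1, as the mean of both channels, reached it on 15 of 25 arrays at 30 min.

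The KCNN2 ratio differed in sign between the time points. At 30 min the ratios of laser over control were −0.94 in replicate 1 and −0.19 in replicate 2, with an SD of 0.53. Their mean was −0.56 (n = 2), the third largest size among the 1504 genes above the signal minimum. Its SE of 0.14, like each SE below, is from the limma fit. That fit pools the spread over the 4 time points and over genes, so its SE does not show the spread of these replicates. The SDs of the KCNN2 replicates at 1 hr, 2 hrs and 3 hrs were 0.0018, 0.24 and 0.28. The tests of these later times thus also carry the wider spread of the 30 min ratios, by which the genes were picked. At 1 hr both replicates were at 0.27. At 2 hrs they were 0.31 and −0.03, and at 3 hrs −0.18 and −0.58. KCNN2 was thus lower in laser than in control SE in both replicates at 30 min and 3 hrs, higher in both at 1 hr, and split at 2 hrs.

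None of these ratios passed the test over all genes. The means were 0.27 at 1 hr (1.21-fold, limma adjusted p = 0.999), 0.14 at 2 hrs (adjusted p = 0.742) and −0.38 at 3 hrs (1.30-fold lower, adjusted p = 0.988), each with an SE of 0.14 and n = 2. The 3 hrs value had an unadjusted limma p of 0.0215 and a 95% interval of −0.69 to −0.06, and so passed the rule of an unadjusted p under 0.05 with over 1.2-fold. By that rule 0.332% of the 1504 genes were called at 1 hr, 4.19% at 2 hrs and 1.53% at 3 hrs, and with the adjusted p 0% were called at each of the 3 times. The unadjusted limma p of KCNN2 was 0.0826 at 1 hr and 0.352 at 2 hrs. By size, its ratio ranked 5 of 1504 (1 hr), 358 (2 hrs) and 8 (3 hrs). A rank by size takes no account of spread, and KCNN2 varied more between repeat arrays than 99% of genes. The ratio at 3 hrs was 0.65 below that at 1 hr (SE 0.20, unadjusted limma p = 0.00722, adjusted p = 0.985) and 0.52 below that at 2 hrs (unadjusted limma p = 0.0251, adjusted p = 0.740), so neither difference passed the adjusted threshold.

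Both orientations gave different pictures of KCNN2. On laser-Cy3 arrays, the ratio was above 0 in 8 of 8 replicates and on 31 of 38 arrays. The means were 0.24 and 0.26 (30 min), 0.51 and 0.46 (1 hr), 0.76 and 0.35 (2 hrs), and 0.65 and 0.31 (3 hrs). On laser-Cy5 arrays, the ratio was below 0 in 6 of 8 replicates and on 28 of 39 arrays. Here the means were −2.11 and −0.64 (30 min), 0.04 and 0.08 (1 hr), −0.14 and −0.41 (2 hrs), and −1.002 and −1.46 (3 hrs). The channel with Cy3 was therefore the brighter one in most hybridizations of both orientations, as the labels give them. At 1 hr both orientations were above 0 in both replicates, and at 30 min, 2 hrs and 3 hrs they had opposite signs in all 6 replicates.

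At 2 hrs and 3 hrs the call depended on the orientation taken, while at 1 hr KCNN2 was called in neither (0.48 and 0.06, limma adjusted p = 0.0753 and 0.974 for laser-Cy3 and laser-Cy5 arrays). A ratio from 1 orientation holds the laser and the dye effect together, so a call from it cannot be assigned to either. From the laser-Cy3 arrays alone, the KCNN2 ratio was called above 0 at 2 hrs (0.55, limma adjusted p = 0.0251) and was 0.48 at 3 hrs (adjusted p = 0.133). Over all genes, these arrays alone called 22 at 1 hr, 189 at 2 hrs and 10 at 3 hrs, against 0 at each time with both orientations. The 2 hrs call of KCNN2 was thus 1 of 189. From the laser-Cy5 arrays alone, the KCNN2 ratio was −0.28 at 2 hrs (limma adjusted p = 0.564) and was called below 0 at 3 hrs (−1.23, adjusted p = 0.0156). The 3 hrs ratio of KCNN2 thus changed sign with the orientation. The count of genes called by the laser-Cy5 arrays alone is not given here, so this call is not read as particular to KCNN2. At 3 hrs, 10.9% of the genes tested were called for a dye effect.

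**Figure D2:**
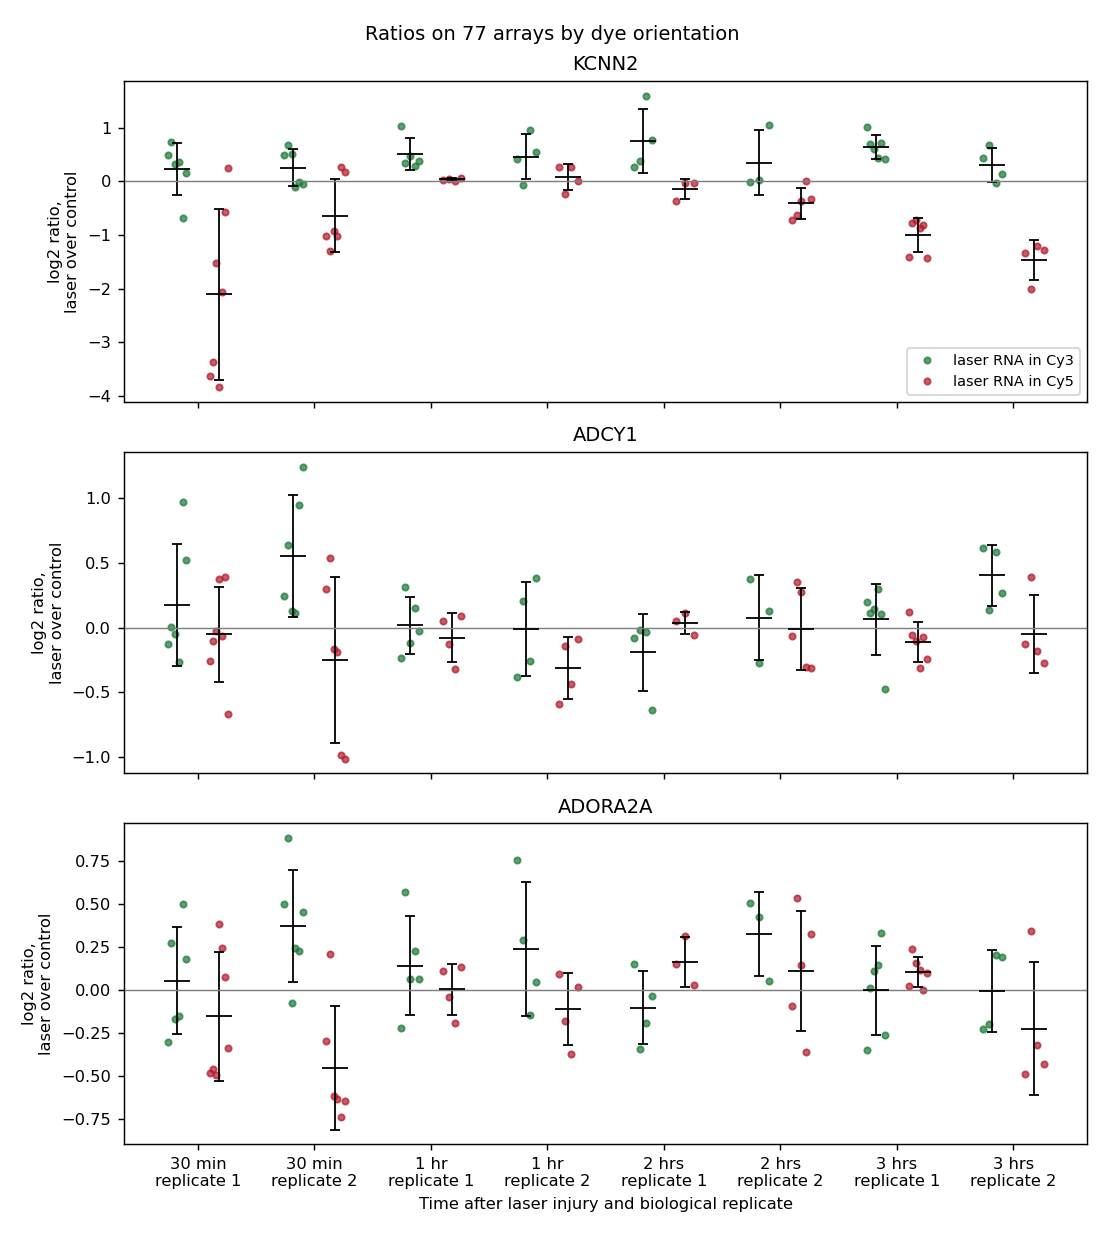
Log2 ratio of laser over control on each array for KCNN2, ADCY1 and ADORA2A, by time point and biological replicate, with arrays coloured by the dye of the laser RNA and black marks and error bars for the mean and SD over the arrays of each orientation. For KCNN2 at 3 hrs the laser-Cy5 arrays were all below 0, and the laser-Cy3 arrays were above 0 on 6 of 6 arrays of replicate 1 and 3 of 4 of replicate 2.

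The dye effect of KCNN2 was below 0, that is brighter in Cy3, in 8 of 8 replicates. The dye effects were −1.17 and −0.45 (30 min), −0.24 and −0.19 (1 hr), −0.45 and −0.38 (2 hrs), and −0.83 and −0.89 (3 hrs). The replicates of a time point lay close to each other at 1 hr, 2 hrs and 3 hrs, with SDs of 0.03, 0.05 and 0.04, and farther apart at 30 min, with an SD of 0.51. Cy3 was the brighter channel after normalization on 59 of 77 arrays. In contrast to the ratio, the dye effect passed the test at 2 hrs, with a mean of −0.41 (1.33-fold brighter in Cy3, SE 0.13, limma adjusted p = 0.0415), and at 3 hrs, with a mean of −0.86 (1.81-fold, SE 0.13, adjusted p = 0.00135). At 1 hr its mean was −0.21 (adjusted p = 0.318). With either replicate left out, the dye effect was −0.45 or −0.38 at 2 hrs and −0.83 or −0.89 at 3 hrs. Such a fit holds 1 sample at that time, so it cannot decide a call. Dye effects were common on this array, and 6.85% of the genes were called for it at 1 hr, 18.4% at 2 hrs and 10.9% at 3 hrs by an adjusted p under 0.05 and over 1.2-fold. With no array turned, these dye effects would take the place of the ratios of laser over control. The dye effect was larger in size than the ratio in 6 of 8 replicates of KCNN2, which by construction are those with orientations of opposite signs.

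**Figure D3:**
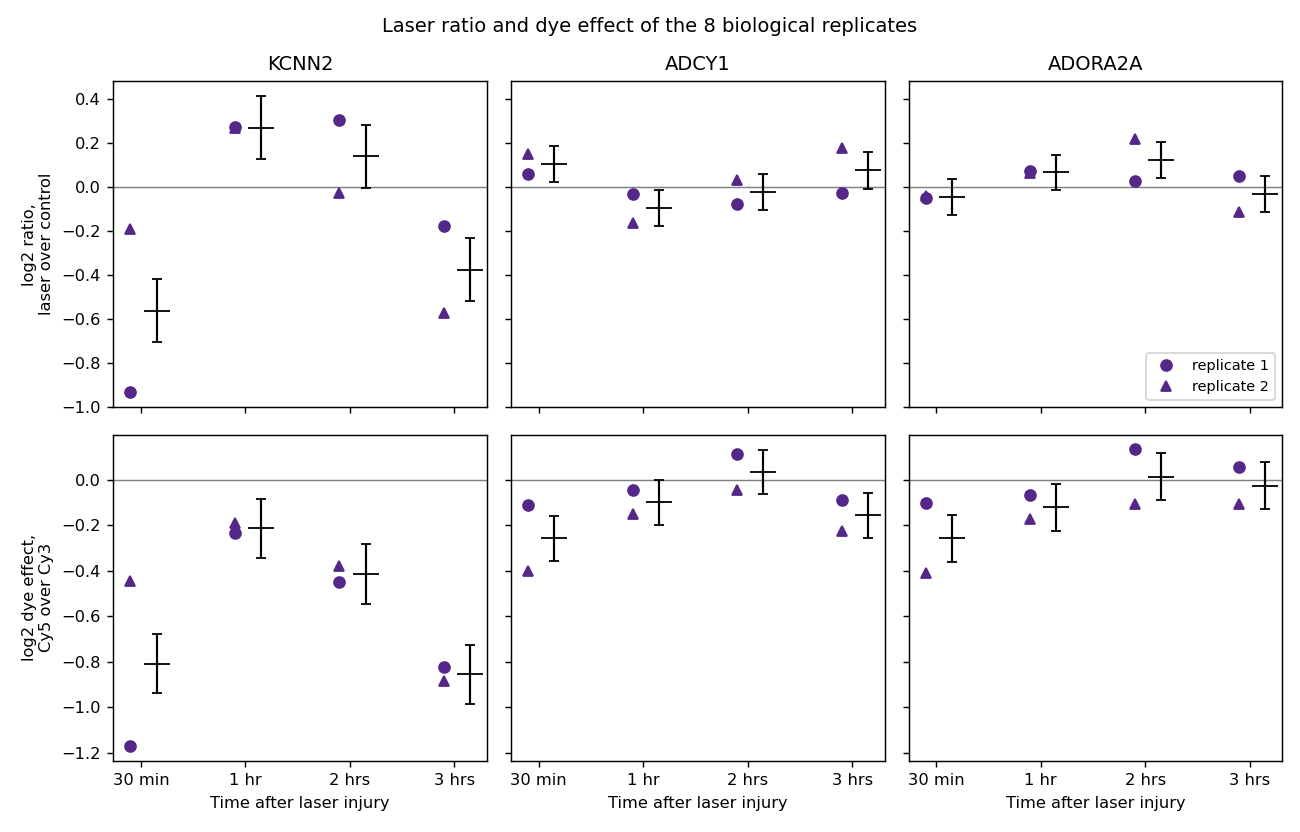
Log2 ratio of laser over control (top) and log2 dye effect, Cy5 over Cy3 (bottom), of the 8 biological replicates by time after laser injury, with the mean and SE (error bars, from the limma fit) of each time point. The KCNN2 dye effect was below 0 in 8 of 8 replicates, whereas its ratio was below 0 in both replicates at 30 min and 3 hrs only.

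The 30 min ratio of KCNN2 differed between days. The headers of the image-analysis files gave 11 days, numbered here in order, and the time points of 30 min and 3 hrs lay on days of their own. In replicate 1 at 30 min, the ratio was −1.24 on day 8, −0.48 on day 9 and −0.00 on day 11. In replicate 2 it was −0.33 on day 10 and 0.10 on day 11. On day 8 the 4 laser-Cy5 arrays averaged −3.09 and the laser-Cy3 arrays averaged 0.62, against −1.32 and 0.35 on day 9. Day 11 was also the day of the 4 arrays with a saturated KCNN2 spot. Without the arrays of day 11 the mean ratio at 30 min was −0.67 and the dye effect −1.11, and without the arrays with a saturated spot they were −0.64 and −0.95.

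At 3 hrs the days differed less than the replicates. The KCNN2 ratios of replicate 1 were −0.12 on day 6 and −0.21 on day 7, and those of replicate 2 were −0.56 and −0.59. Without replicate 1 the 3 hrs ratio would be −0.58 and without replicate 2 it would be −0.18. At 1 hr the ratio was above 0 on every day that held both orientations, with 0.21 and 0.36 in replicate 1 and 0.34 and 0.09 in replicate 2. At 2 hrs the values were 0.58 and −0.02 in replicate 1 and 0.15 and −0.35 in replicate 2. Only days 3 and 5 held 2 time points, 1 hr and 2 hrs. On day 5 the KCNN2 ratios at 2 hrs were −0.02 and −0.35, against 0.36 and 0.09 (1 hr), and on day 3 the ratio was 0.58 in replicate 1 at 2 hrs, against 0.34 in replicate 2 at 1 hr. The difference between these times thus ran in opposite directions on both days. Over the 17 combinations of replicate and day that held both orientations, the ratio was above 0 in 7 and below 0 in 10, and the dye effect was below 0 in 15. These counts include replicate 2 of 30 min on day 11 (ratio 0.10, dye effect 0.12), where every array had a saturated KCNN2 spot.

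**Figure D4:**
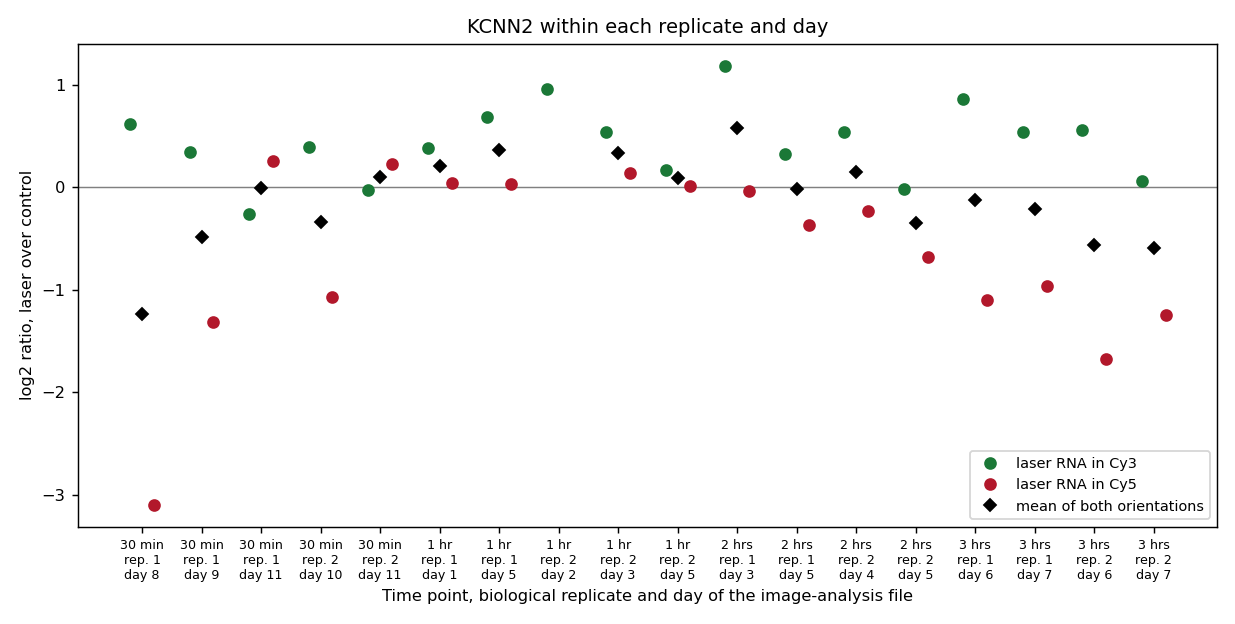
KCNN2 log2 ratio of laser over control within each biological replicate and day of the image-analysis file, for laser-Cy3 arrays, laser-Cy5 arrays and the mean of both. Day 8 of replicate 1 at 30 min had the lowest ratio, −1.24, and on day 11 the laser-Cy3 and laser-Cy5 arrays were at −0.26 and 0.26 in replicate 1, and at −0.02 and 0.22 in replicate 2, whose arrays had saturated spots.

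ADCY1 had ratios near 0 at all 4 times, and none was called. The median raw signals were 1858 for laser and 1315 for control RNA at 30 min, 4010 for laser and 3648 for control at 1 hr, 2767 for laser and 3541 for control at 2 hrs, and 2122 for laser and 2367 for control at 3 hrs. It reached the minimum of 1000 on 15 of 25 arrays at 30 min (60%), so it did not count as detectable at that time, on all arrays at 1 hr and 2 hrs, and on 18 of 20 at 3 hrs (90%). The ratios of its replicates were 0.06 and 0.15 (30 min), −0.03 and −0.16 (1 hr), −0.08 and 0.03 (2 hrs), and −0.02 and 0.18 (3 hrs). The replicates of ADCY1 had 1 sign at 30 min and 1 hr and opposite signs at 2 hrs and 3 hrs. The tested means were −0.10 at 1 hr (limma adjusted p = 0.999), −0.02 at 2 hrs (adjusted p = 0.942) and 0.08 at 3 hrs (adjusted p = 1.00), each with an SE of 0.08 and n = 2. Their 95% intervals were −0.27 to 0.08, −0.20 to 0.15 and −0.10 to 0.25.

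The orientations of ADCY1 also differed in sign, at a smaller size. On laser-Cy3 arrays the means were 0.17 and 0.55 (30 min), 0.02 and −0.01 (1 hr), −0.19 and 0.08 (2 hrs), and 0.06 and 0.40 (3 hrs). On laser-Cy5 arrays they were −0.05 and −0.25 (30 min), −0.08 and −0.31 (1 hr), 0.03 and −0.01 (2 hrs), and −0.11 and −0.05 (3 hrs). The orientations had opposite signs in 7 of 8 replicates, which by construction are those with a dye effect larger in size than the ratio. The mean dye effects were −0.10 at 1 hr (limma adjusted p = 0.564), 0.03 at 2 hrs (adjusted p = 0.831) and −0.16 at 3 hrs (adjusted p = 0.345), and none was called. At 30 min the dye effects were −0.11 in replicate 1 and −0.40 in replicate 2.

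ADORA2A was detectable at each of the 4 time points, and none of its ratios was called. The median raw signals were 2396 for laser and 2144 for control RNA at 30 min, 4011 for laser and 4182 for control at 1 hr, 2647 for laser and 3159 for control at 2 hrs, and 2670 for laser and 3031 for control at 3 hrs. It reached 1000 on 21 of 25 arrays at 30 min (84%) and on all arrays at the other times. The ratios of its replicates were −0.05 and −0.04 (30 min), 0.07 and 0.06 (1 hr), 0.03 and 0.22 (2 hrs), and 0.05 and −0.12 (3 hrs). The replicates had the same sign at 30 min, 1 hr and 2 hrs, all close to 0 except for replicate 2 at 2 hrs. The tested means were 0.07 at 1 hr (limma adjusted p = 0.999), 0.12 at 2 hrs (adjusted p = 0.593) and −0.03 at 3 hrs (adjusted p = 1.00), each with an SE of 0.08 and n = 2. Their 95% intervals were −0.11 to 0.24, −0.05 to 0.30 and −0.21 to 0.14.

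The orientations of ADORA2A had opposite signs in 5 of 8 replicates. On laser-Cy3 arrays the means were between −0.10 and 0.37, and on laser-Cy5 arrays between −0.45 and 0.16. At 30 min, replicate 2 was at 0.37 on laser-Cy3 arrays and at −0.45 on laser-Cy5 arrays, so its ratio of −0.04 was the mean of a pair of opposite values. In replicate 2 at 2 hrs, in contrast, both orientations were above 0, at 0.33 and 0.11. The mean dye effects were −0.12 at 1 hr (limma adjusted p = 0.49), 0.01 at 2 hrs (adjusted p = 0.942) and −0.03 at 3 hrs (adjusted p = 0.925).

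The level of each probe was followed over time as the log2 signal of both channels relative to the median gene of the array. The levels of KCNN2 were 2.88 and 4.29 (30 min), 3.54 and 2.11 (1 hr), 3.06 and 3.53 (2 hrs), and 3.52 and 4.19 (3 hrs). The SDs of the replicates were between 0.33 and 1.01, and the ranges of all 4 times overlapped. In order of the means, KCNN2 stood at 3.86 (3 hrs), 3.29 (2 hrs) and 2.82 (1 hr). The 3 hrs mean was 0.56 above that of 2 hrs (limma adjusted p = 0.679), more than the SDs of 0.47 at 3 hrs and 0.33 at 2 hrs. The ranges of these times overlapped only between 3.52 and 3.53. The 30 min mean of 3.59 includes the 4 arrays with a saturated spot in replicate 2, so it is a lower bound and has no place in the order. The levels of ADCY1 were 0.52 and 0.37 (30 min), 1.03 and 1.27 (1 hr), 1.14 and 1.05 (2 hrs), and 0.80 and 1.19 (3 hrs). Both ADCY1 replicates of 30 min lay below all 6 later ones. The levels of ADORA2A were 0.98 and 1.19 (30 min), 1.08 and 1.21 (1 hr), 0.96 and 1.02 (2 hrs), and 1.31 and 1.80 (3 hrs), with both replicates of 3 hrs above the other 6.

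These differences in level did not pass the test. The limma F-test over the 4 times gave an adjusted p of 0.497 for KCNN2, 0.280 for ADCY1 and 0.409 for ADORA2A, where 0.598% of the 1504 genes were called. ADCY1 was 0.71 higher at 1 hr than at 30 min (1.63-fold, SE 0.24, limma adjusted p = 0.189), 0.65 higher at 2 hrs (adjusted p = 0.229) and 0.56 higher at 3 hrs (adjusted p = 0.372). KCNN2 was 1.03 higher at 3 hrs than at 1 hr (SE 0.50, adjusted p = 0.310). The array median signal was 1222 (30 min), 2859 (1 hr), 1952 (2 hrs) and 1385 (3 hrs), so 30 min was also the time of the dimmest arrays, and with 30 min and 3 hrs on days of their own, time and day cannot be told apart for the level.

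In the median array, the 2 spots of KCNN2 lay closer to each other than those of ADCY1 or ADORA2A. The duplicate spots of KCNN2 differed by 0.13 in the median array, those of ADCY1 by 0.18 and those of ADORA2A by 0.17, against 0.20 for the median gene. The spots had opposite signs on 10 arrays for KCNN2, 14 for ADCY1 and 20 for ADORA2A, and correlated over 77 arrays at r = 0.95, 0.67 and 0.71. The spread between arrays of the same replicate and orientation was a different matter. The SD over such arrays was 0.63 for KCNN2, larger than that of 99% of genes, against 0.36 for ADCY1 and 0.29 for ADORA2A, where the median gene had 0.36. These measures are unlike, a median difference between spots and an SD over arrays, and the largest difference between KCNN2 spots was 1.24. Among the orientations of each replicate, the SD of KCNN2 was largest on laser-Cy5 arrays of 30 min, at 1.59 in replicate 1 and 0.68 in replicate 2.

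ADCY1 and ADORA2A lie next to each other on the array. Both are in the subarray of the first block row and column, in rows 14 and 15 and the same columns 13 and 14, whereas KCNN2 is in another subarray, in row 27 and columns 15 and 16. Over the 8 replicates, the dye effects of ADCY1 and ADORA2A correlated at r = 0.90 and their ratios at r = −0.52. For KCNN2, the ratios correlated at −0.69 with ADCY1 and at 0.58 with ADORA2A. These values are over 8 replicates from the same arrays and are given as a description.

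The gene with the ratios most like those of KCNN2 also lay beside it on the array. CDO had mean ratios of −0.58 (30 min), 0.33 (1 hr), 0.16 (2 hrs) and −0.38 (3 hrs), with r = 0.98 to KCNN2 over 8 replicates. Its dye effects correlated with those of KCNN2 at r = 0.89, and its spots begin in row 26 and column 17 of the KCNN2 subarray, diagonal to the KCNN2 spots. CSRP1 (r = 0.97) and LZTR1 (r = 0.93) came next and are in the same subarray. Of the 42 genes with r over 0.8 to KCNN2, 30 (71.4%) were in its subarray, which holds 25.3% of the other genes. With a loess curve for each subarray in place of 1 for the array, 11 of 25 such genes were in the subarray of KCNN2, and the r of CDO, CSRP1 and LZTR1 were 0.98, 0.89 and 0.87.

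The highest correlations were lower for the other pair. The genes most like ADCY1 were ZFP (r = 0.91), BC000584 (r = 0.91) and KIAA1610 (r = 0.88), and 12 of its 25 genes with r over 0.8 shared its subarray (48%, against 24.6% of the other genes). With a loess curve for each subarray, ADCY1 had 2 such genes in its subarray and 6 outside it, and the r of ZFP, BC000584 and KIAA1610 were 0.79, 0.62 and 0.88. Those most like ADORA2A were PC4 (r = 0.93), EPLIN (r = 0.89) and STAT3 (r = 0.88), and 3 of its 19 such genes shared its subarray (15.8%). With the subarray curves, the r of EPLIN was −0.12, and those of PC4 and STAT3 were 0.77 and 0.96. Each r rests on 8 replicates from the same arrays.

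**Figure D5:**
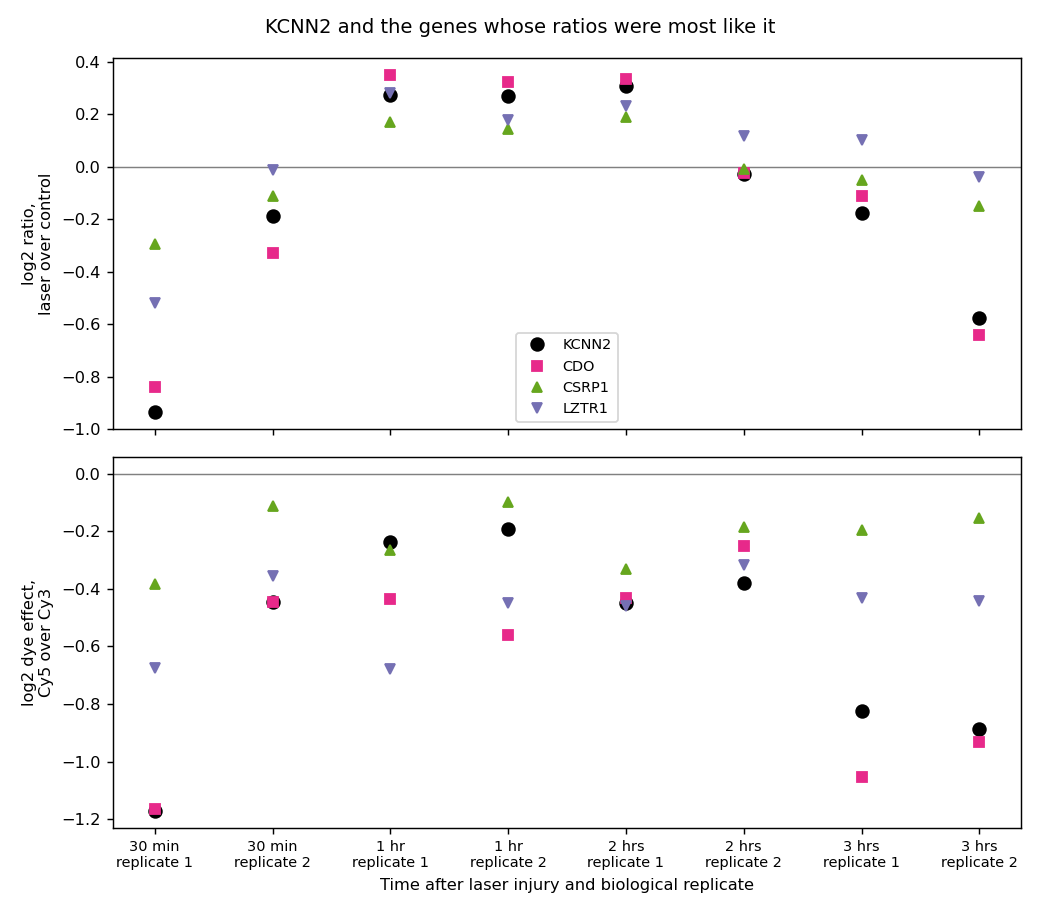
Log2 ratio of laser over control (top) and log2 dye effect, Cy5 over Cy3 (bottom), of KCNN2, CDO, CSRP1 and LZTR1 in the 8 biological replicates. CDO ran close to KCNN2 in both panels, with r = 0.98 for the ratio and r = 0.89 for the dye effect.

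Genes of families or sets related to cAMP and calcium were followed as lists. The first list goes by family and also holds a factor of another response, ATF6, so its counts are not read as cAMP signalling. Of the CREB and ATF factors and their coactivators, 15 of 16 were on the array and none was called by an adjusted p at 1 hr, 2 hrs or 3 hrs. By the unadjusted rule 0 were called at 1 hr and at 3 hrs, and at 2 hrs 1 was called higher (PPARGC1) and 2 lower (ATF2 and ATF6), so 3 of 15 at 2 hrs, where 4.19% of all genes tested were called. The medians were 0.00 (1 hr), −0.03 (2 hrs) and 0.03 (3 hrs), against −0.01, −0.01 and −0.00 over all genes tested. At 30 min, as a description, 1 of the 15 passed the unadjusted rule as higher and 0 as lower. Of the 1504 genes, 14 passed it as higher and 38 as lower. The ratios of the list then lay between −0.10 and 0.50. At 2 hrs, ATF2, a cAMP response element binding factor, had a ratio of −0.29 (limma adjusted p = 0.216) and ATF6, a sensor of stress in the endoplasmic reticulum, one of −0.27 (adjusted p = 0.209). ATF6 was at −0.28 on laser-Cy3 arrays and at −0.26 on laser-Cy5 arrays, so its orientations gave the same sign, unlike those of KCNN2 at that time. PPARGC1, a transcriptional coactivator that cAMP induces, was at 0.33 at 2 hrs (adjusted p = 0.281), from 0.96 on laser-Cy3 and −0.30 on laser-Cy5 arrays, with a dye effect of −0.63 (adjusted p = 0.00232).

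All 15 genes known to be induced by cAMP or calcium were on the array. None was called by an adjusted p, and 1 was called higher at 2 hrs by the unadjusted rule, where 4.19% of all genes were, and 0 at the other tested times, with medians of −0.02 (1 hr), −0.03 (2 hrs) and 0.04 (3 hrs). The gene called was JUNB, an immediate early AP-1 factor, at 0.32 at 2 hrs (limma adjusted p = 0.239), with 0.79 on laser-Cy3 and −0.15 on laser-Cy5 arrays. The early growth response factor EGR2 was at −0.23 at 2 hrs (adjusted p = 0.281) and NFIL3 at 0.23 at 1 hr (adjusted p = 0.999), where NFIL3 was above 0 in both orientations (0.27 on laser-Cy3 and 0.18 on laser-Cy5 arrays). At 30 min, as a description, 2 of these 15 genes passed the unadjusted rule as higher and 0 as lower. Of the 1504 genes, 14 passed it as higher and 38 as lower. The ratios of these 15 genes then lay between −0.14 and 0.70, with a median of 0.04. Of the calcium-regulated factors 11 of 13 were on the array, and none was called by either rule. Their medians were 0.01 (1 hr), 0.02 (2 hrs) and 0.03 (3 hrs), and NFATC3, a target of calcineurin, was at 0.14 at 1 hr (adjusted p = 0.999).

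Few other names on the array belong to the same signalling. The search for names of channels, receptors and messenger enzymes matched 6 genes, of which TRPS1, PDEF and PRKCSH share only the letters with such a family. None of the 6 was called by either rule. CALM2, a gene of calmodulin, the calcium sensor that gates KCNN2 and stimulates ADCY1, was at −0.22 at 2 hrs (limma adjusted p = 0.490), and CACNA2D1, an auxiliary subunit of calcium channels, at −0.12 at 3 hrs (adjusted p = 1.00). A further 3 genes were added after the names on the array were seen, and none was called. P2RX5, a channel opened by ATP, was at −0.11, MC1R, a melanocortin receptor that raises cAMP, at −0.15, and RYR2, a calcium release channel, at 0.11, all at 3 hrs.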

How the data were processed

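The authors deposited, for each dye of each of 77 arrays, the intensity values of ImaGene 4.1, which are mean pixel values for each spot and for the background around it, neither subtracted nor normalized per the file headers. The authors also deposited log2 ratios of laser over control, which match the raw mean signals (largest difference 5.77e-15), and so had not gone through LOWESS. They served as an alternative. The arrays the study selected are not identified in the sources used here, and all 77 were used. No sequence or genome position is given, since the files name no build.

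Each channel was background corrected by normexp (offset 50) and each array normalized by 1 loess curve in limma 3.58.1 (R 4.3.3), with the 27 control names of 1534 at weight 0. Duplicate spots were averaged, the sign of laser-Cy3 arrays was turned, and the arrays of each orientation and then both orientations were averaged to 8 biological replicates. The dye effect is the same mean with no array turned. Repeat arrays of 1 pair of RNAs were not counted as replicates. Nothing in the labels says how separate the biological replicates were, so p-values speak for these samples only. They rest on a spread between replicates pooled over the 4 time points and over genes, not on the spread at 1 time point. A mean signal of 1000 or more at 1 time point or more was required, which left 1504 genes and removed 3. The means of the 4 time points were tested against 0 in 1 limma fit, with Benjamini-Hochberg adjustment within a time point. Calls needed a change over 1.2-fold and a p under 0.05, adjusted or, where stated, unadjusted. Levels were centred on the median gene of each array and channel and tested by limma's F-test and contrasts. The number of biological replicates, 8 over the 4 time points, limits the precision, and the median residual SD was 0.121 with 9.30 prior degrees of freedom. The procedure was tested on simulated data.

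The members and gene lists were chosen with earlier results of these data known. Named genes are the 3 members, the 3 genes with the highest correlation to each, and up to 4 genes of each list with the smallest unadjusted p at 1 hr, 2 hrs or 3 hrs. All 3 symbols are in the RefSeq table of chicken genes, used for names only. Replicate numbers were checked for pairing. Same-numbered samples had deviations with correlations of −0.25 to 0.17 between time points, and were not taken as pairs. Alternatives changed the background correction, the normalization, the source of values, the spots, the averaging, the orientation, the blocks, the signal minimum, the fold threshold and the test, and left out each replicate in turn. A further 3 were added after seeing the data, namely leaving out the arrays with a saturated KCNN2 spot, leaving out the arrays of the latest day, and a loess curve for each subarray.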

Additional observations from a re-analysis of the deposited data

Results flagged for a closer look

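Within arrays of 1 replicate and orientation, 4 of 42 groups of arrays had 1 array far from the others, where chance alone marks about 1 group in 20. For KCNN2, 1 array of 1 hr replicate 1 with the laser RNA in Cy3 was at 1.04, against 0.30 to 0.47 on the other arrays of that group (n = 5). Also for KCNN2, 1 array of 3 hrs replicate 2 with the laser RNA in Cy5 was at −2.01, against −1.34 to −1.20 on the others (n = 4). For ADCY1, 1 array of 2 hrs replicate 1 with the laser RNA in Cy3 was at −0.63, against −0.08 to −0.02 (n = 4), and 1 array of 3 hrs replicate 1 with the laser RNA in Cy3 was at −0.48, against 0.11 to 0.30 (n = 6).

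For some pairs of time points, both replicates of one lay above 0 and both of the other below it. The KCNN2 ratio at 3 hrs was 0.65 below that at 1 hr (difference −0.65, limma adjusted p = 0.985 for the difference). Differences that involve 30 min were not tested, since the 30 min ratios chose the genes. The ratio at 1 hr minus that at 30 min was 0.83 for KCNN2, −0.20 for ADCY1 and 0.11 for ADORA2A, and the ratio at 2 hrs minus that at 30 min was 0.17 for ADORA2A.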

How the results depend on the processing

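No ratio of KCNN2, ADCY1 or ADORA2A at 1 hr, 2 hrs or 3 hrs was called by adjusted p, except for KCNN2 when 1 orientation was used alone or no array was turned, and the KCNN2 dye effect was below 0 at each time under every alternative run. With the laser RNA in Cy3 only, the ratios were 0.25 (KCNN2), 0.36 (ADCY1) and 0.21 (ADORA2A) at 30 min, 0.55 (KCNN2) at 2 hrs, 0.48 (KCNN2) at 3 hrs and 0.0015 (ADCY1) at 1 hr. With the laser RNA in Cy5 only they were −1.37, −0.15 and −0.30 at 30 min, −0.28 and −1.23 for KCNN2 at 2 hrs and 3 hrs, 0.011 and −0.081 for ADCY1 at 2 hrs and 3 hrs, and −0.054 for ADORA2A at 1 hr. With no array turned they were −0.21, −0.41 (limma adjusted p = 0.0415) and −0.86 (adjusted p = 0.00135) for KCNN2 at 1 hr, 2 hrs and 3 hrs, −0.26, 0.034 and −0.16 for ADCY1 at 30 min, 2 hrs and 3 hrs, and −0.26 and −0.12 for ADORA2A at 30 min and 1 hr. These alternatives use fewer arrays or another sign by construction; for those that follow the cause was not tested.

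The KCNN2 dye effect at 2 hrs, near the threshold, was no longer called with plain background subtraction (−0.33), scaling between arrays (−0.33), the first spot (−0.37), the median over arrays (−0.25) and loess in each subarray (−0.22). At 1 hr it was called with median centring (−0.54), the deposited table (−0.49) and that table centred (−0.50). Median centring and the centred table gave larger KCNN2 dye effects at 2 hrs (−1.19 and −0.95, limma adjusted p = 1.5e-05 and 0.00070). At 3 hrs they gave −1.32 and −1.30, against −0.86 with the main processing. Loess in each subarray put the KCNN2 ratio at 2 hrs at −0.0014. Median centring put that ratio at 0.46 (limma adjusted p = 0.337) and the centred table at 0.29 (adjusted p = 0.556). At 3 hrs the KCNN2 ratio was −0.54 with the deposited table (limma adjusted p = 0.0559), near the threshold but not called. It was −0.45 with that table centred (adjusted p = 0.990), against −0.38 with the main processing (adjusted p = 0.988).

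Dye effects of ADCY1 and ADORA2A at 2 hrs, which lay near 0, changed sign under several settings. They were −0.025 for ADCY1 and −0.024 for ADORA2A with no background correction, −0.24 and −0.24 with median centring, −0.084 and −0.066 with the centred table, −0.018 and −0.00053 with the first spot, −0.022 and −0.0031 with the median over arrays, and −0.082 and −0.099 with loess in each subarray. For ADORA2A alone they were −0.0014 with plain subtraction and −0.0026 with scaling. At 3 hrs they were 0.18 and 0.17 with the deposited table, and 0.053 for ADORA2A with the first spot. At 30 min they were −0.026 and −0.022 with the deposited table, and 0.00024 for ADCY1 without the latest day.

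The ADORA2A ratio at 30 min, whose replicates lay very close, was −0.077 with no background correction, −0.081 with plain subtraction, −0.029 with median centring, −0.070 with scaling, 0.10 with the deposited table, −0.055 with that table centred, −0.026 and −0.065 with the first and the other spot, −0.15 with the median over arrays, −0.012 without arrays with a saturated KCNN2 spot, −0.040 without the latest day and −0.14 with loess in each subarray. It was 0.0080 with scaling and 0.0011 with the first spot at 3 hrs, and −0.15 with the deposited table at 2 hrs. The ADCY1 ratio was 0.30 with the deposited table and 0.043 with the median over arrays at 30 min, 0.014 with the median over arrays at 2 hrs, and −0.14 and −0.043 with the deposited table and its centred form at 3 hrs.

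Leaving out 1 replicate assumed that the lone sample varied like the other groups. Such a fit cannot decide a call, so only effect sizes are given. At 2 hrs the KCNN2 ratio was −0.028 to 0.31 and the ADCY1 ratio −0.079 to 0.033. The dye effects at 2 hrs were −0.45 to −0.38 for KCNN2, −0.044 to 0.11 for ADCY1 and −0.11 to 0.13 for ADORA2A. At 3 hrs the KCNN2 dye effect was −0.89 to −0.83, the ADCY1 ratio −0.025 to 0.18, the ADORA2A ratio −0.12 to 0.052 and its dye effect −0.11 to 0.054. Levels relative to 30 min, which for KCNN2 rest on saturated spots, were −0.999 to 0.41 for KCNN2 at 2 hrs, −0.44 to 0.98 for KCNN2 at 3 hrs, −0.040 to 0.17 for ADORA2A at 1 hr and −0.20 to 0.0078 for ADORA2A at 2 hrs. With no background correction the level was −0.20 for KCNN2 at 3 hrs and −0.21 for ADORA2A at 1 hr. Quantile normalization gave 0.46 for KCNN2 and 0.21 for ADORA2A at 2 hrs, and the laser channel alone 0.18 for KCNN2.

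With the replicate number as a block, the KCNN2 dye effect was −0.41 at 2 hrs (adjusted p = 0.0323) and −0.86 at 3 hrs (adjusted p = 0.00078), and the block changed no call of the 3 genes. The numbers do not pair the samples. Over all genes, the unadjusted calls were 5 at 1 hr (1 to 337 over the alternatives), 63 at 2 hrs (12 to 470) and 23 at 3 hrs (12 to 331), and the adjusted calls were 0 at each time and at most 103, 276 and 164 with no array turned. The methods' t-test over arrays called 3, 35 and 12 genes at their threshold and 0, 0 and 1 after Benjamini-Hochberg adjustment. That t-test takes repeat arrays of 1 pair of RNAs as replicates, so its counts are not comparable with those over biological replicates. On 4 arrays saturation limits KCNN2, and at 30 min the low signal limits ADCY1.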
